A study of Homo sapiens with 18 samples.

Results

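The 9 genes described here encode secreted or membrane-bound matrix metalloproteinases (MMP1, MMP2, MMP3 and MMP14), their tissue inhibitors (TIMP1, TIMP2 and TIMP3), the urokinase plasminogen activator (PLAU) and its receptor (PLAUR). They were taken by symbol from the annotation of the array, and all 9 were among the 7828 genes tested after dim probe sets were left out. The 9 genes had 18 probe sets naming them alone. The probe set with the highest mean over the 18 arrays stands for each gene, and the other probe sets of PLAU, PLAUR, MMP14 and TIMP3 are given beside it; the other 5 genes had 1 probe set each. The cells were U251, an established human glioblastoma line, and RNA was measured on Affymetrix HG-U133A_2 arrays. The siMPS1 cells had been transfected with an siRNA against MPS1, the kinase encoded by TTK that holds back anaphase until chromosomes are attached to the spindle. The siNeg cells had been given a negative siRNA, and the Control cells had not been transfected. Each treatment was sampled at 6, 24 and 48 h with 2 arrays, giving 9 groups. The labels give 2 pmol as the amount of siRNA. All groups are of the same line, and neither the siRNA sequences nor the transfection reagent is given in the sources used here.

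Matrix metalloproteinases are zinc enzymes that are made as inactive precursors and cut collagens, proteoglycans and other proteins outside the cell. TIMP proteins bind their active sites. PLAU, held at the surface by PLAUR, turns plasminogen into plasmin, a protease that degrades fibrin and matrix and activates several MMP precursors, and glioblastoma cells are known to use both systems when they invade brain tissue. MMP precursors and their inhibitors are regulated after translation as well, so the RNA levels below say nothing of enzyme activity.

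TTK was lower in siMPS1 cells than in siNeg cells by 1.43 to 2.30 on the log2 scale over the 3 times (limma adjusted p from 2.35e-07 to 0.000807). Array medians lay between 4.30 and 4.56 (log2 signal). Of the glioma and astrocyte markers, VIM (mean log2 signal 11.91), CD44 (11.53) and NES (9.01) were bright, whereas GFAP was dim (3.27) and S100B (-0.25), OLIG2 (1.34) and AQP4 (0.10) fell below the filter. Of the mesenchymal markers TNC (10.16) was bright and CHI3L1 (1.87) fell below the filter, and the neuronal markers SYT1 (6.39), MAP2 (4.31) and SNAP25 (3.65) passed it. The measured epithelial, blood and endothelial markers were all below the filter as well. Control probe sets for RNA quality moved with the groups. The log2 ratio of the 3′ to the 5′ probe set of ACTB was 0.87 and 0.92 in siMPS1 cells at 48 h, against 0.10 and 0.14 in siNeg cells and 0.16 and 0.24 in Control cells. The log2 signal of 18S ribosomal RNA at 48 h was 10.75 and 10.84 in siMPS1 cells, 9.50 and 9.46 in siNeg cells and 9.74 and 9.75 in Control cells. The part of these differences in the results below was not tested. The labels do not say if both arrays of a group stand for separate transfections, so p-values measure only the spread between these arrays, and in RNA from whole cultures fewer expressing cells and less RNA per cell cannot be told apart.

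Differences between groups were tested with limma on log2(signal + 3), with Benjamini-Hochberg adjustment over all 7828 genes of a comparison, and a gene counted as called where its adjusted p was under 0.05. Fold changes are therefore on the scale of signal plus 3. Against siNeg, siMPS1 cells had 1 of the 9 genes called at 6 h, TIMP1, where 7.7% of all genes tested were called (3.45% higher and 4.25% lower). At 24 h 2 were called, PLAU and PLAUR, against 10.9% of all genes (5.14% higher and 5.81% lower). At 48 h 3 were called, MMP1, MMP3 and PLAU, against 29.2% of all genes (15.7% higher and 13.5% lower). Against Control, siMPS1 cells had 2 of 9 called at 6 h (16.6% of all genes), 2 at 24 h (12.7%) and 2 at 48 h (27.5%). Between siNeg and Control, limma called 0 at 6 h (3.82% of all genes) and 0 at 24 h (0.933%), with 1 and 0 at an unadjusted p under 0.05, and 5 at 48 h (12.9%). The median log2 difference of the 9 genes between siMPS1 and siNeg was 0.10 at 6 h, -0.01 at 24 h and -0.08 at 48 h, beside 0.01, 0.00 and 0.03 over all genes. Nothing is read from these counts about the 9 genes as a group, and what follows concerns single members.

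**Figure D1:**
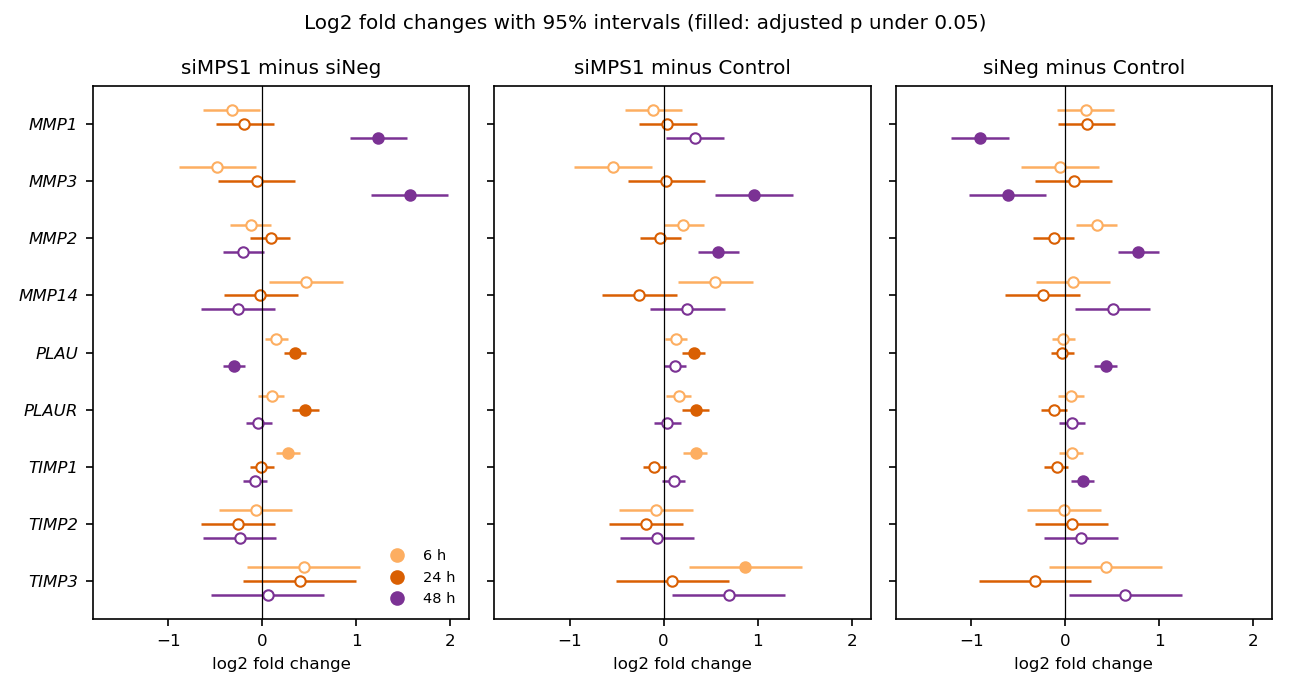
Log2 fold changes of the 9 genes with 95% intervals from limma, for siMPS1 minus siNeg, siMPS1 minus Control and siNeg minus Control, with the times as colours and filled points for an adjusted p under 0.05. MMP1 and MMP3 at 48 h stand far to the right in the first panel (1.23 and 1.57) and to the left in the third (-0.90 and -0.61), and the intervals of TIMP3 are the widest.

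MMP1, interstitial collagenase, and MMP3, stromelysin 1, which can activate the MMP1 precursor, showed the widest differences of the 9 genes between siMPS1 and siNeg cells at 48 h. The log2 signal of MMP1 at 48 h was 7.07 and 6.79 in siMPS1 cells, 5.60 and 5.70 in siNeg cells and 6.65 and 6.53 in Control cells. The siMPS1 arrays were the highest, the siNeg arrays the lowest, and the Control arrays lay between them without overlap. The ribosomal RNA signal at 48 h, given above, ran in the same order of groups, and its part in the result was not tested. MMP1 was 2.35-fold higher in siMPS1 than in siNeg cells (log2 fold change 1.23, SE 0.14, adjusted p = 5.44e-06). Against Control the difference was 0.33 (95% interval 0.03 to 0.64, adjusted p = 0.0998) and was not called, although leaving out either siMPS1 array of 6 h brought it under the threshold (lowest adjusted p = 0.0393). SiNeg cells themselves were below Control cells by a log2 difference of -0.90 (SE 0.14, adjusted p = 0.000502).

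MMP3 had the same order of groups at 48 h. Its log2 signal was 5.87 and 5.81 in siMPS1 cells, 4.04 and 4.19 in siNeg cells and 4.41 and 5.20 in Control cells. The groups did not overlap, and the Control arrays were the most spread. MMP3 was 2.97-fold higher in siMPS1 than in siNeg cells (log2 fold change 1.57, SE 0.20, adjusted p = 9.96e-06) and 1.94-fold higher than in Control cells (0.96, SE 0.20, adjusted p = 0.00155). Without Control 48 h replicate 1, the lower of the pair, the difference from Control was 0.60 (adjusted p = 0.0378). SiNeg minus Control was -0.61 (SE 0.20, adjusted p = 0.0485), a call that was lost when any of 13 of the 18 arrays was left out, the exceptions being both arrays of Control 24 h and siMPS1 6 h and Control 48 h replicate 1. Without Control 48 h replicate 2, the higher of the pair, that difference was -0.26 (adjusted p = 0.502), and without replicate 1 it was -0.96 (adjusted p = 0.00661).

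At 6 and 24 h neither MMP1 nor MMP3 was called between siMPS1 and siNeg cells. At 6 h MMP1 measured 5.09 and 4.51 in siMPS1 cells, 5.17 and 5.16 in siNeg cells and 5.04 and 4.81 in Control cells. The siMPS1 arrays were there below both siNeg arrays, and the difference of -0.32 was not called (adjusted p = 0.185). Without siMPS1 6 h replicate 1, the higher of the pair, it was -0.58 and called (adjusted p = 0.0288). At 24 h MMP1 measured 7.71 and 7.64, 7.80 and 7.94, and 7.65 and 7.62 in siMPS1, siNeg and Control cells, and the difference from siNeg was -0.19 (adjusted p = 0.464). MMP3 at 6 h measured 5.26 and 5.59 in siMPS1 cells, 6.11 and 5.76 in siNeg cells and 6.06 and 5.93 in Control cells, both siMPS1 arrays lying below the rest, with a difference from siNeg of -0.48 that was not called (adjusted p = 0.144). Its difference of -0.54 from Control at 6 h (adjusted p = 0.0683) was called under median centring (-0.70, adjusted p = 0.0152), quantile normalization (-0.61, adjusted p = 0.0429) and without either array of Control 48 h (-0.54, lowest adjusted p = 0.0312). MMP3 at 24 h measured 6.57 and 6.51, 6.57 and 6.64, and 6.32 and 6.70 in siMPS1, siNeg and Control cells. The Control arrays overlapped both other groups. The siMPS1 arrays touched the siNeg arrays, lying just below them before rounding (linear signals of 94.7 and 91.4 against 94.9 and 99.6). The difference between siMPS1 and siNeg itself changed between 24 and 48 h, by 1.42 for MMP1 (SE 0.20, adjusted p = 0.000152) and by 1.63 for MMP3 (SE 0.28, adjusted p = 0.000649), in a contrast that called 4 of the 9 genes and 15.8% of all genes. Averaged over the 3 times, where 24.8% of all genes and 3 of the 9 were called, siMPS1 minus siNeg was 0.24 for MMP1 (adjusted p = 0.0438) and 0.34 for MMP3 (adjusted p = 0.0346). Over 6 and 24 h alone, an average added after the data were seen, the values were -0.26 (adjusted p = 0.104) and -0.27 (adjusted p = 0.21). The call of the 3-time average was lost for MMP1 without any of 14 arrays, all but siMPS1 6 h replicate 2, siMPS1 48 h replicate 2 and the Control 6 h pair, with 0.15 (adjusted p = 0.14) without siMPS1 6 h replicate 1, and under 6 of the other settings (highest adjusted p = 0.0827). For MMP3 it was lost without either array of siMPS1 24 h, siMPS1 48 h or siNeg 24 h, or without siMPS1 6 h replicate 2, siNeg 6 h replicate 2 or siNeg 48 h replicate 1 (highest adjusted p = 0.106), and under 3 of the other settings (highest adjusted p = 0.0628).

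In the RefSeq gene order on chromosome 11, MMP10 precedes MMP1, and MMP3 follows it. Before MMP10 lie MMP8, MMP27 and MMP20, and after MMP3 lie MMP12 and MMP13. None of these further neighbours was among the genes tested. MMP10, stromelysin 2, is a close relative of MMP3 and is not one of the 9 genes. Its log2 signal at 48 h was 5.28 and 5.49 in siMPS1 cells, 4.13 and 4.38 in siNeg cells and 5.01 and 4.87 in Control cells, again with siMPS1 highest, siNeg lowest and no overlap. The difference of siMPS1 from siNeg was 1.02 (SE 0.12, adjusted p = 4.08e-06), that from Control was 0.41 (adjusted p = 0.0139), and siNeg minus Control was -0.61 (adjusted p = 0.00216). Its difference between siMPS1 and siNeg also changed between 24 and 48 h, by 1.13 (SE 0.16, adjusted p = 0.000162).

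**Figure D2:**
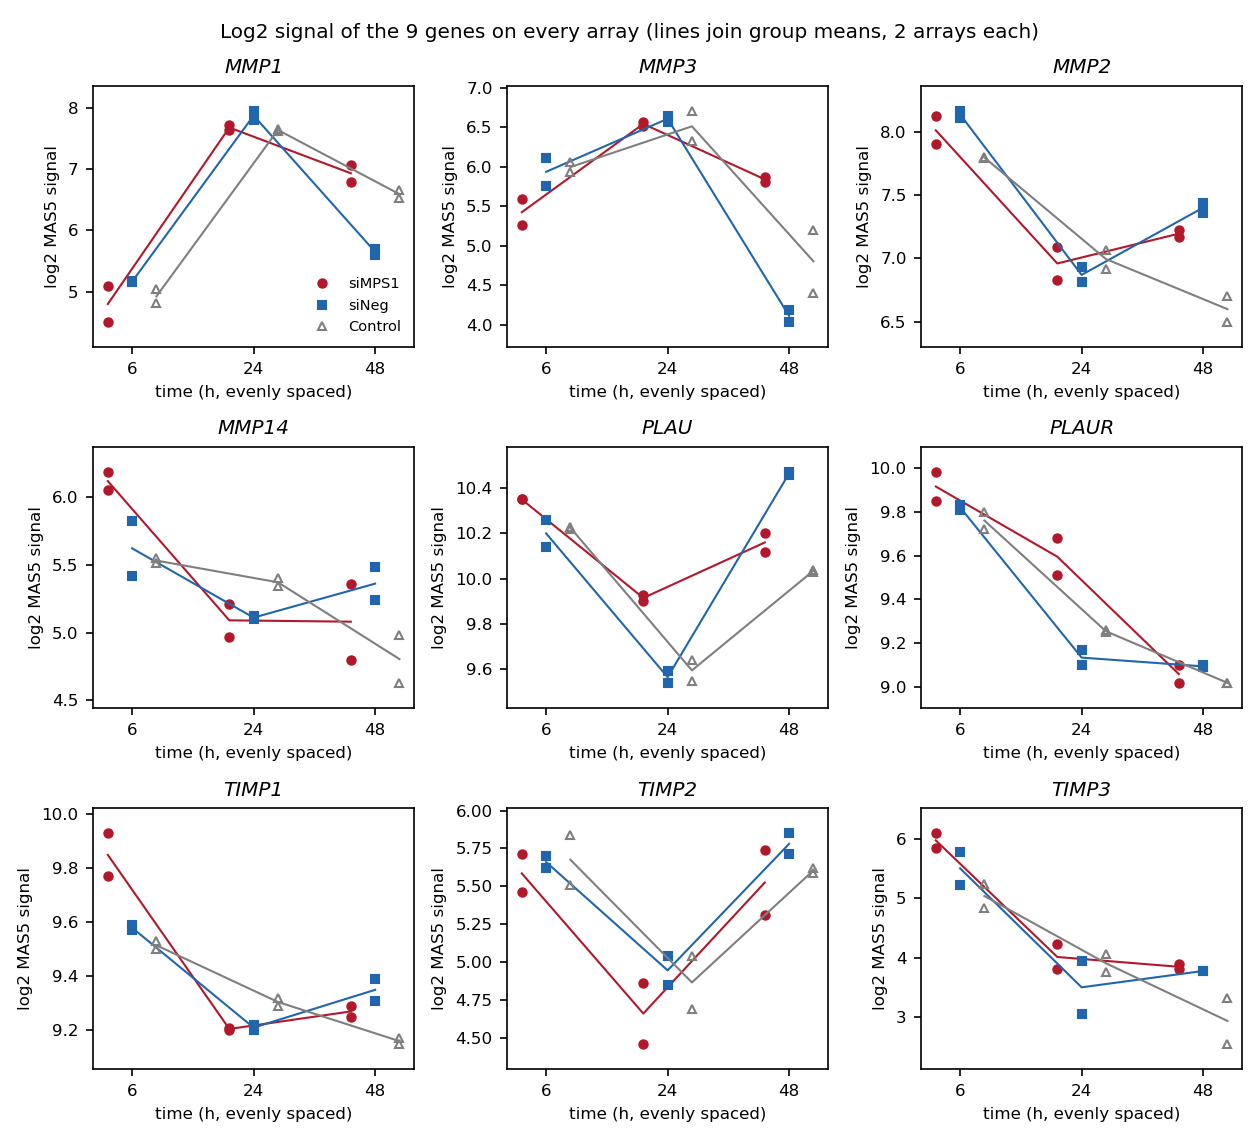
Log2 MAS5 signal of each of the 9 genes on every array by time (h), with siMPS1 as circles, siNeg as squares and Control as triangles, and lines through the means of the 2 arrays. MMP1 peaks at 24 h in all 3 treatments and siNeg then falls below the others (5.60 and 5.70 at 48 h), and PLAU is lowest at 24 h in all 3 treatments.

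MMP2, gelatinase A, and MMP14, the membrane-bound MMP that activates the MMP2 precursor together with TIMP2, did not differ between siMPS1 and siNeg cells by the test at any time. MMP2 at 48 h had log2 signals of 7.22 and 7.17 in siMPS1 cells, 7.36 and 7.44 in siNeg cells and 6.70 and 6.50 in Control cells. Both transfected groups were above Control without overlap, and siMPS1 lay just below siNeg. MMP2 was 1.49-fold higher in siMPS1 than in Control cells (log2 fold change 0.58, SE 0.10, adjusted p = 0.00045) and 1.72-fold higher in siNeg than in Control cells (0.78, SE 0.10, adjusted p = 8.07e-05). SiMPS1 minus siNeg was -0.20 (95% interval -0.42 to 0.02, adjusted p = 0.158). At 6 h MMP2 measured 8.12 and 7.90, 8.16 and 8.11, and 7.79 and 7.80, and at 24 h 6.83 and 7.09, 6.93 and 6.81, and 6.92 and 7.07, in siMPS1, siNeg and Control cells. The 24 h groups overlapped, and the siMPS1 and siNeg arrays of 6 h, which overlapped each other, were above Control without a call.

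MMP14 had a mean log2 signal of 5.34. Its log2 signal at 6 h was 6.05 and 6.18 in siMPS1 cells, 5.42 and 5.82 in siNeg cells and 5.55 and 5.51 in Control cells. The siMPS1 arrays were above all the others, but the differences of 0.47 from siNeg (95% interval 0.07 to 0.86, adjusted p = 0.141) and 0.55 from Control (95% interval 0.15 to 0.95, adjusted p = 0.0541) were not called. The difference from Control was called with a pseudocount of 11 (adjusted p = 0.0426), when no other groups were fitted (adjusted p = 0.0345) and without either array of siMPS1 48 h (adjusted p = 0.0388 and 0.0376). At 24 h it measured 4.97 and 5.21, 5.12 and 5.10, and 5.34 and 5.40, and at 48 h 5.36 and 4.80, 5.24 and 5.48, and 4.98 and 4.63, in siMPS1, siNeg and Control cells, with siMPS1 overlapping siNeg at both times. The 3 dimmer probe sets of MMP14, with means of 3.95, 2.61 and 2.29, gave siMPS1 minus siNeg from -1.37 to 1.16, and none passed over the 19064 probe sets tested singly.

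PLAU and the brightest probe set of PLAUR, the activator and its receptor, were both higher in siMPS1 cells at 24 h, against siNeg and against Control. The log2 signal of PLAU at 24 h was 9.90 and 9.93 in siMPS1 cells, 9.54 and 9.59 in siNeg cells and 9.64 and 9.55 in Control cells. Both siMPS1 arrays were above all 4 others, which overlapped. PLAU was 1.28-fold higher than in siNeg cells (log2 fold change 0.35, SE 0.06, adjusted p = 0.000621) and 1.25-fold higher than in Control cells (0.32, SE 0.06, adjusted p = 0.00113). The second probe set of PLAU measured 8.69 and 8.77 in siMPS1 cells, 8.35 and 8.45 in siNeg cells and 8.44 and 8.44 in Control cells, a difference of 0.32 from siNeg (adjusted p = 0.00507 over the 19064 probe sets). The ribosomal RNA signal at 24 h was 9.88 and 10.05 in siMPS1 cells, 10.60 and 10.64 in siNeg cells and 9.91 and 9.95 in Control cells; its part in these differences was not tested.

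PLAUR at 24 h had log2 signals of 9.51 and 9.68 in siMPS1 cells, 9.17 and 9.10 in siNeg cells and 9.25 and 9.26 in Control cells. The siMPS1 arrays were again the highest, and siNeg lay below Control. PLAUR was 1.37-fold higher than in siNeg cells (log2 fold change 0.46, SE 0.07, adjusted p = 0.000184) and 1.27-fold higher than in Control cells (0.34, SE 0.07, adjusted p = 0.00242). These values belong to the brightest of 3 probe sets. The second measured 8.92 and 9.27 in siMPS1 cells, 8.73 and 8.86 in siNeg cells and 8.78 and 8.88 in Control cells. Its difference from siNeg was 0.30 and was not called (adjusted p = 0.152). The third, with a mean log2 signal of 6.69, showed a difference of -0.01 (SE 0.10, adjusted p = 0.976). Against Control they gave 0.26 (adjusted p = 0.215) and 0.01 (adjusted p = 0.976), neither called. The probe sets of PLAUR thus disagreed, and the files used here do not say which transcripts each one reads.

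At 48 h PLAU was called lower in siMPS1 than in siNeg cells, and the brightest probe set of PLAUR was not called. PLAU measured 10.12 and 10.20 in siMPS1 cells, 10.46 and 10.47 in siNeg cells and 10.04 and 10.03 in Control cells. The siNeg arrays were the highest of all 18, and siMPS1 lay between siNeg and Control without overlap. PLAU was 0.811-fold of siNeg (log2 fold change -0.30, SE 0.06, adjusted p = 0.000637), while siMPS1 minus Control was 0.12 (95% interval 0.00 to 0.24, adjusted p = 0.12; 0.15 and called under quantile normalization, adjusted p = 0.0346) and siNeg minus Control was 0.43 (SE 0.06, adjusted p = 9.7e-05). The second probe set measured 9.02 and 8.97, 9.66 and 9.62, and 8.98 and 8.91 in siMPS1, siNeg and Control cells, and gave -0.64 against siNeg (adjusted p = 1.95e-06), a larger difference than the first. PLAUR at 48 h was at 9.10 and 9.02 in siMPS1 cells, 9.09 and 9.10 in siNeg cells and 9.02 and 9.02 in Control cells, with siMPS1 overlapping siNeg. Its difference from siNeg was -0.04, with a 95% interval of -0.17 to 0.10. The second probe set of PLAUR measured 8.57 and 8.81 in siMPS1 cells and 8.87 and 8.97 in siNeg cells. The third measured 6.66 and 6.53 in siMPS1 cells and 6.41 and 6.22 in siNeg cells. Without overlap, the siMPS1 arrays were thus lower in the second and higher in the third. Between 24 and 48 h the difference between siMPS1 and siNeg changed by -0.65 for PLAU (SE 0.08, adjusted p = 3.39e-05) and by -0.49 for PLAUR (SE 0.09, adjusted p = 0.00148). The value of PLAUR is that of its brightest probe set, and the third changed the other way without a call, as given below.

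At 6 h PLAU measured 10.35 and 10.35 in siMPS1 cells, 10.14 and 10.26 in siNeg cells and 10.23 and 10.22 in Control cells, and the difference of 0.15 from siNeg was not called (adjusted p = 0.121). PLAUR at 6 h measured 9.98 and 9.85, 9.81 and 9.83, and 9.72 and 9.80 in siMPS1, siNeg and Control cells, and its difference from siNeg was 0.10 (adjusted p = 0.42). For both genes the siMPS1 arrays of 6 h were above all the others, without a call. Against Control, PLAUR at 6 h was called under quantile normalization (0.21, adjusted p = 0.0423) and as the mean of all probe sets (0.22, adjusted p = 0.0174). From 6 to 24 h the siMPS1 minus siNeg difference of PLAUR grew by 0.36 (SE 0.09, adjusted p = 0.0379), the 1 call among the 9 genes in a contrast that called 3.68% of all genes. That call was lost when either array of siNeg 6 h, siNeg 24 h or Control 24 h, or replicate 2 of siMPS1 6 h or siMPS1 24 h, was left out (highest adjusted p = 0.149, without siMPS1 6 h replicate 2) and was not seen with the other probe sets (0.07 and -0.14). PLAUR was also higher in the average over the 3 times, by 0.17 (SE 0.04, adjusted p = 0.00288), and the other probe sets gave 0.10 (adjusted p = 0.367) and 0.13 (adjusted p = 0.185), neither called.

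**Figure D3:**
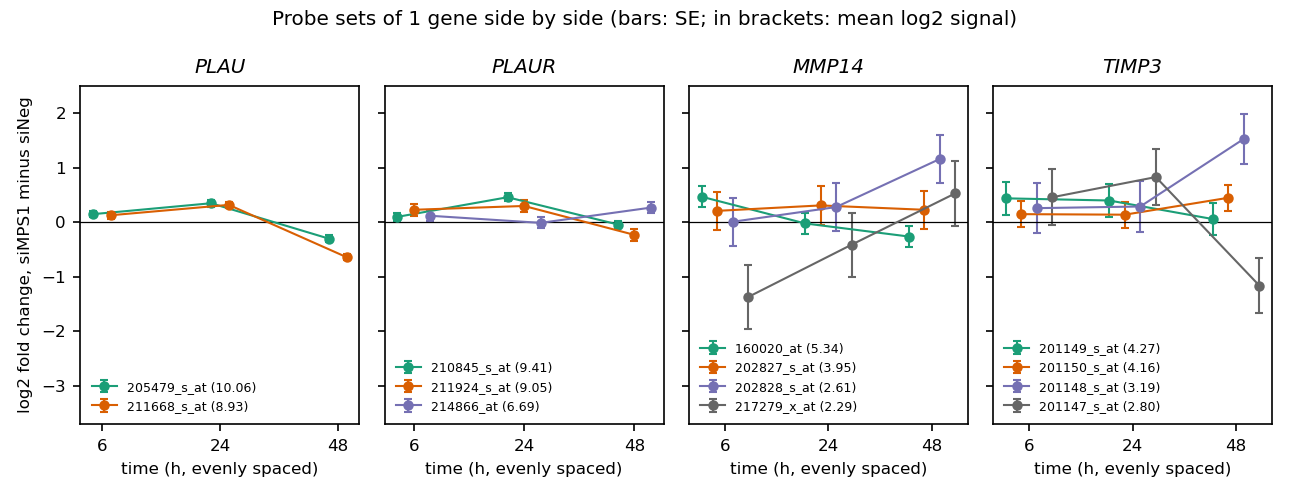
Log2 fold change of siMPS1 minus siNeg for every probe set of PLAU, PLAUR, MMP14 and TIMP3 by time (h), with bars for the SE from limma and the mean log2 signal of the probe set in brackets. The 2 probe sets of PLAU run together and part at 48 h (-0.30 and -0.64), those of PLAUR differ at 24 h (0.46, 0.30 and -0.01), and the dim probe sets of MMP14 and TIMP3 scatter.

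Because PLAU and the brightest probe set of PLAUR were higher together at 24 h, the 250 bases before their RefSeq transcription starts are shown, from the tables of build GRCh38.p14, 5′ to 3′ on the strand of the gene. The tables held starts for 5 of the 9 genes: MMP14, PLAU, PLAUR, TIMP1 and TIMP3. Capitals mark matches to TGANTCA, the site of the AP-1 factors, which are known to act on protease genes.
PLAU start 1, chr10:73910360-73910609, plus strand: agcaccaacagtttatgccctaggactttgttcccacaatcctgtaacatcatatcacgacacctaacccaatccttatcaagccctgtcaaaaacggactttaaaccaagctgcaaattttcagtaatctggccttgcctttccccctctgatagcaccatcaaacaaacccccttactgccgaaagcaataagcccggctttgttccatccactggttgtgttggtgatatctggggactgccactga
PLAU start 2, chr10:73910882-73911131, plus strand: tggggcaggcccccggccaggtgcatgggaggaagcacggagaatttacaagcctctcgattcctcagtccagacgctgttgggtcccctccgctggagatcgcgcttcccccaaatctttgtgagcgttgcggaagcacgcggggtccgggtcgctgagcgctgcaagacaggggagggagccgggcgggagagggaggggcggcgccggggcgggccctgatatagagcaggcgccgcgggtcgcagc
PLAUR, chr19:43670170-43670419, minus strand: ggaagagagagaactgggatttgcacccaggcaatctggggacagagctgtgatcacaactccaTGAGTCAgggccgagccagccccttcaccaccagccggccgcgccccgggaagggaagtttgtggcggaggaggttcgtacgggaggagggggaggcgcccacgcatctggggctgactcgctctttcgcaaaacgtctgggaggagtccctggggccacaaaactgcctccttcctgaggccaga
Of these 3 windows, that of PLAUR held 1 match, TGAGTCA, at bases -186 to -180 relative to the start. The windows of PLAU held none, and neither did those of MMP14, TIMP1 and TIMP3. Of 35116 RefSeq promoter windows of the same length, 6.57% held TGANTCA on either strand. GGGCGG, the site of SP1, was found 3 times before the second start of PLAU and on either strand in 42.6% of all windows. The windows of MMP14, TIMP1 and TIMP3 held it as well, counting both strands. These are matches of letters, and binding was not measured.

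Of the inhibitors, 1 was called between siMPS1 and siNeg cells, at 6 h. TIMP1, a secreted inhibitor of most MMPs, had log2 signals at 6 h of 9.77 and 9.93 in siMPS1 cells, 9.59 and 9.57 in siNeg cells and 9.53 and 9.50 in Control cells. The siMPS1 arrays were the highest, and the 3 groups did not overlap. TIMP1 was 1.21-fold higher than in siNeg cells (log2 fold change 0.27, SE 0.06, adjusted p = 0.0133) and 1.26-fold higher than in Control cells (0.34, SE 0.06, adjusted p = 0.00165). The call against siNeg was lost without siMPS1 6 h replicate 2 (0.19, adjusted p = 0.157), without siNeg 6 h replicate 1 (0.28, adjusted p = 0.073) or without siNeg 6 h replicate 2 (0.26, adjusted p = 0.0825). The ribosomal RNA signal at 6 h ran in the same order of groups, 10.36 to 10.42 in siMPS1 cells, 10.09 to 10.13 in siNeg cells and 9.73 to 9.77 in Control cells; its part in the result was not tested.

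At 24 h TIMP1 measured 9.20 and 9.21 in siMPS1 cells, 9.20 and 9.22 in siNeg cells and 9.32 and 9.29 in Control cells, and the interval of the difference from siNeg was -0.13 to 0.12. At 48 h it measured 9.25 and 9.29, 9.39 and 9.31, and 9.15 and 9.17 in siMPS1, siNeg and Control cells. SiMPS1 minus siNeg was then -0.08 (95% interval -0.20 to 0.05, adjusted p = 0.349), and siNeg minus Control was 0.19 (adjusted p = 0.0461). The siNeg call was lost when any array outside siMPS1 6 h and siMPS1 24 h was left out, 14 of the 18 (highest adjusted p = 0.28, without siNeg 48 h replicate 1).

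TIMP2, which inhibits MMPs and also takes part in the activation of MMP2, did not differ between treatments at any time by the test. It measured 5.46 and 5.71, 5.70 and 5.62, and 5.51 and 5.84 at 6 h in siMPS1, siNeg and Control cells, 4.86 and 4.46, 5.04 and 4.85, and 5.04 and 4.69 at 24 h, and 5.31 and 5.74, 5.85 and 5.71, and 5.59 and 5.62 at 48 h. The siMPS1 arrays overlapped the siNeg arrays at each time, and the intervals of siMPS1 minus siNeg were -0.46 to 0.32 at 6 h, -0.65 to 0.14 at 24 h and -0.63 to 0.15 at 48 h.

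TIMP3, an inhibitor that stays bound to the matrix and also blocks several ADAM proteases, had a mean log2 signal of 4.27. It measured 5.85 and 6.09 in siMPS1 cells, 5.78 and 5.22 in siNeg cells and 5.23 and 4.84 in Control cells at 6 h. The siMPS1 arrays were the highest and did not overlap the others, and the difference of 0.87 from Control (SE 0.29, adjusted p = 0.0448) was called while that of 0.44 from siNeg (adjusted p = 0.386) was not. The call against Control was lost when either array of siMPS1 6 h, siMPS1 48 h, Control 6 h or Control 24 h was left out (highest adjusted p = 0.246, without Control 6 h replicate 2), under 6 of the other settings, and in the other 3 probe sets of the gene (0.15, 0.49 and 0.80). At 24 h TIMP3 measured 4.22 and 3.80, 3.95 and 3.05, and 4.06 and 3.75, and at 48 h 3.80 and 3.89, 3.77 and 3.78, and 3.32 and 2.55, in siMPS1, siNeg and Control cells, with no call. One dimmer probe set, with a mean of 3.19, gave a difference of 1.53 from siNeg at 48 h (adjusted p = 0.0313 over the 19064 probe sets), where the main one gave 0.06, so no direction is given against siNeg. Against Control at 48 h the main probe set gave 0.69 without a call, the dimmer one 1.58 (adjusted p = 0.0297) and the mean of all probe sets 0.85 (adjusted p = 0.0235).

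Most of the 9 genes were called between 6 and 24 h in every treatment. Between 6 and 24 h all 9 genes were called in siMPS1 cells (47.4% of all genes tested) and in siNeg cells (44.3%), and 8 in Control cells (43.1%). MMP1 was 6.71-fold higher at 24 h than at 6 h in siMPS1 cells (log2 fold change 2.75, adjusted p = 4.64e-11), 6.11-fold higher in siNeg cells (2.61, adjusted p = 1.03e-10) and 6.05-fold higher in Control cells (2.60, adjusted p = 1.18e-10). MMP3 was also higher at 24 h, by 1.06, 0.64 and 0.50 on the log2 scale in siMPS1, siNeg and Control cells, and the other genes called were all lower at 24 h. MMP2 was lower by a log2 difference of -1.04 in siMPS1 cells, -1.24 in siNeg cells and -0.79 in Control cells, TIMP3 by -1.78, -1.74 and -0.99, TIMP2 by -0.85, -0.66 and -0.75, and TIMP1 by -0.65, -0.37 and -0.21. PLAU was lower by -0.43, -0.63 and -0.63, and PLAUR by -0.32, -0.68 and -0.50, both by the smallest amount in siMPS1 cells, a difference from siNeg cells that was called for PLAUR, as given above, and not for PLAU (0.20, adjusted p = 0.169). The third probe set of PLAUR gave -0.10 (adjusted p = 0.546), 0.04 (adjusted p = 0.863) and 0.13 (adjusted p = 0.439) in siMPS1, siNeg and Control cells. MMP14 was lower by -0.96 in siMPS1 cells and -0.48 in siNeg cells (adjusted p = 0.0476), and its -0.15 in Control cells was not called. The MMP14 call in siNeg cells was lost when either array of siNeg 24 h, siMPS1 6 h, Control 6 h or Control 24 h, or replicate 2 of siNeg 6 h or siNeg 48 h, was left out (-0.29 without siNeg 6 h replicate 2). The MMP3 call in Control cells was lost when either array of siMPS1 24 h, siMPS1 48 h, siNeg 24 h, siNeg 48 h or Control 6 h, or Control 24 h replicate 2, was left out (0.31 without the last). In siNeg cells the call of MMP3 did not hold without replicate 2 of either time, and that of TIMP2 without siNeg 24 h replicate 2. In Control cells TIMP1 and TIMP3 lost theirs without Control 6 h replicate 1 or Control 24 h replicate 2, and TIMP2 without Control 6 h replicate 2 or Control 24 h replicate 2, so that 4 genes were called without Control 24 h replicate 2 and 5 without Control 6 h replicate 1.

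From 24 to 48 h the proteases MMP1 and MMP3 fell in all 3 treatments, and the activator PLAU and the inhibitor TIMP2 rose. In siMPS1 cells 5 of 9 genes were called (24.4% of all genes), in siNeg cells 5 (29.2%) and in Control cells 6 (19.6%). The change of MMP1 was -0.73 in siMPS1 cells, -2.15 in siNeg cells and -1.02 in Control cells, and that of MMP3 was -0.67, -2.30 and -1.60. PLAU changed by 0.24, 0.89 and 0.44, and TIMP2 by 0.80, 0.78 and 0.68. SiMPS1 cells thus had the smallest values of these changes for MMP1, MMP3 and PLAU and siNeg cells the largest. The difference from siNeg was tested above, and that from Control was not tested. PLAUR changed by -0.53 in siMPS1 cells (adjusted p = 2.46e-05) and -0.23 in Control cells (adjusted p = 0.0203), and by -0.04 in siNeg cells, where the arrays of both times ran between 9.09 and 9.17. These are values of its brightest probe set. The third gave -0.22 (adjusted p = 0.197) in siMPS1 cells, -0.50 (adjusted p = 0.00264) in siNeg cells and -0.31 (adjusted p = 0.0672) in Control cells. The second gave -0.14 (adjusted p = 0.545) in Control cells, and median centring of the first gave -0.11 there (adjusted p = 0.263). MMP2 rose in siNeg cells (0.52, adjusted p = 0.000975) and fell in Control cells (-0.39, adjusted p = 0.0133), the last not called under median centring (-0.27, adjusted p = 0.0764). In siMPS1 cells its change was 0.23 (adjusted p = 0.11), and 0.36 (adjusted p = 0.0419) without siMPS1 24 h replicate 2. In siMPS1 cells the call of MMP3 was lost without any 1 of the 4 arrays of siMPS1 24 h and 48 h (highest adjusted p = 0.0939), that of TIMP2 without siMPS1 24 h replicate 2 or siMPS1 48 h replicate 2, and that of PLAU without siMPS1 48 h replicate 2 (adjusted p = 0.0615), without which 2 of the 9 genes were called. In Control cells the call of PLAUR was lost without any 1 of the 4 arrays compared, that of MMP2 without replicate 2 of either time, and that of TIMP2 without Control 24 h replicate 2 or either Control 48 h array, so that 3 of the 9 were called without Control 24 h replicate 2 or without Control 48 h replicate 2.

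Over the 9 group means on the log2(signal + 3) scale, MMP1 ran lowest to highest over 2.93 log2 units, TIMP3 over 2.61 and MMP3 over 2.30, and TIMP1 over 0.69. MMP1 was highest in siNeg cells at 24 h, followed by siMPS1 and Control cells at 24 h, which overlapped, and it was lowest in siMPS1 and Control cells at 6 h, which overlapped too. MMP3 was highest in the 3 groups of 24 h, where Control overlapped both others, and lowest in siNeg cells at 48 h. MMP2, MMP14, PLAUR, TIMP1 and TIMP3 were all highest at 6 h, in siMPS1 cells for MMP14, PLAUR, TIMP1 and TIMP3 and in siNeg cells for MMP2, where siMPS1 overlapped it. PLAU and TIMP2 were highest in siNeg cells at 48 h, where TIMP2 overlapped the groups next to it, and lowest at 24 h.

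Other genes of these systems were read from 7 lists. Of 18 other MMPs 6 were tested, and 1 passed against siNeg, MMP10 at 48 h as given above. At 6 h and at 24 h limma called 0 of them, with 1 each at an unadjusted p under 0.05. Of 12 other inhibitors 7 were tested. At 6 and 24 h limma called 0, with 3 and 0 at an unadjusted p under 0.05, and at 48 h SERPINE2, an inhibitor of urokinase and thrombin (0.54, SE 0.07, adjusted p = 3.03e-05), and SERPINI1, a neuronal serpin (0.70, adjusted p = 0.0108), were higher and CST3, the cysteine protease inhibitor cystatin C (-0.50, adjusted p = 0.00816), was lower. None of these 3 was called against Control at 48 h (SERPINE2 0.20, SERPINI1 0.17 and CST3 -0.09), while siNeg minus Control was called for SERPINE2 (-0.34, adjusted p = 0.00578) and CST3 (0.41, adjusted p = 0.0471).

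Among partners of plasminogen, 9 of 14 were tested. At 6 h 3 were higher in siMPS1 than in siNeg cells and 0 lower: ANXA2 (0.49, adjusted p = 0.0179) and S100A10 (0.29, adjusted p = 0.0396), which form a plasminogen receptor together, and ENO1 (0.30, adjusted p = 0.0467), a glycolytic enzyme that also binds plasminogen at the surface. At 24 h PLAT, the tissue plasminogen activator, was higher (0.42, adjusted p = 0.0152) and the plasminogen receptor PLGRKT lower (-0.52, adjusted p = 0.00705). At 48 h PLGRKT (-0.48, adjusted p = 0.00388) and MRC2, a collagen receptor that associates with PLAUR (-0.48, adjusted p = 0.00929), were lower. Of these, ANXA2 at 6 h and PLGRKT at 24 and 48 h had calls of the same sign against Control. The list's median was 0.17 at 6 h, 0.05 at 24 h and -0.20 at 48 h, beside 0.01, 0.00 and 0.03 over all genes.

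Of 18 ADAM and ADAMTS proteases 9 were tested. At 6 h limma called 0, also at an unadjusted p under 0.05, 3 were higher and 1 lower at 24 h, and 3 were higher and 2 lower at 48 h. ADAM19 was lower at 24 h (-0.65, adjusted p = 3.24e-06) and 48 h (-0.69, adjusted p = 4.1e-07), and ADAM12 was higher at both (0.44, adjusted p = 0.00363, and 0.74, adjusted p = 6.87e-06). Both are membrane-bound sheddases, and both differed from Control in the same direction at these times. ADAM10, the main sheddase of Notch, was higher at 24 h (0.30, adjusted p = 0.00629) and 48 h (0.28, adjusted p = 0.00395). It was also called higher than in Control cells at 24 h (0.30, adjusted p = 0.00637) and 48 h (0.25, adjusted p = 0.00984). ADAM9 was lower at 48 h than in siNeg cells (-0.37, adjusted p = 0.000512) and than in Control cells (-0.49, adjusted p = 5.11e-05). ADAMTS1, which cuts versican and aggrecan, was higher than in siNeg cells at 48 h (0.56, adjusted p = 0.000349). ADAMTS1 was not called against Control there (0.12, adjusted p = 0.405), and siNeg minus Control was -0.44 (adjusted p = 0.00665).

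Of 21 cathepsins and other proteases 16 were tested. CTSZ was higher at 6 h (0.55, adjusted p = 0.000552), CTSC at 24 h (0.32, adjusted p = 0.018) and 4 of them at 48 h, among them CTSB (0.42, adjusted p = 0.000236), CTSL (0.33, adjusted p = 0.0034) and CTSZ (0.32, adjusted p = 0.0039), with 0 lower at any time. These are lysosomal enzymes. CTSB and CTSL were also higher than in Control cells at 48 h (0.27 and 0.22), while CTSZ was lower than in Control cells (-0.47, adjusted p = 0.000187). The list's median at 48 h was 0.19.

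All 11 activators, cofactors and matrix partners were tested. THBS1, thrombospondin 1, was lower at 6 h (-0.36, adjusted p = 0.0286) and higher at 24 h (0.42, adjusted p = 0.00714), and SPARC, a matricellular protein, was higher at 24 h (0.43, adjusted p = 0.000108) and 48 h (0.26, adjusted p = 0.00261). BSG, or basigin, which is known to induce MMPs in neighbouring cells, was lower at 48 h (-0.76, adjusted p = 2.27e-06), as was the tetraspanin CD151 (-0.58, adjusted p = 0.000114). In all 2 of the 11 were higher and 3 lower at 48 h. Against Control at 48 h, BSG was lower (-0.33, adjusted p = 0.0059) and SPARC higher (0.44, adjusted p = 2.45e-05), and CD151 showed 0.00 (adjusted p = 0.997).

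Of 16 AP-1, ETS and related factors 15 were tested. At 6 h limma called 0, with 2 at an unadjusted p under 0.05, and ETS2 was lower at 24 h (-0.34, adjusted p = 0.00406). At 48 h 3 were higher and 2 lower, among them CEBPB (0.55, adjusted p = 6.48e-07) and the AP-1 member JUND (0.43, adjusted p = 0.00128), which were higher, and ETS2 (-0.41, adjusted p = 0.000253), which was lower. JUND and ETS2 differed from Control in the same direction (0.71 and -0.62), and CEBPB was not called against Control (0.10, adjusted p = 0.189). FOS, another AP-1 member, was dim at 48 h. It measured 0.77 and -0.72 in siMPS1 cells (log2 signal), below both siNeg arrays (2.96 and 3.56). The Control arrays (2.78 and -0.63) overlapped the siMPS1 arrays. Over the 7 lists the shares called stood beside 7.7%, 10.9% and 29.2% of all genes at the 3 times, and nothing is called particular to a list.

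**Figure D4:**
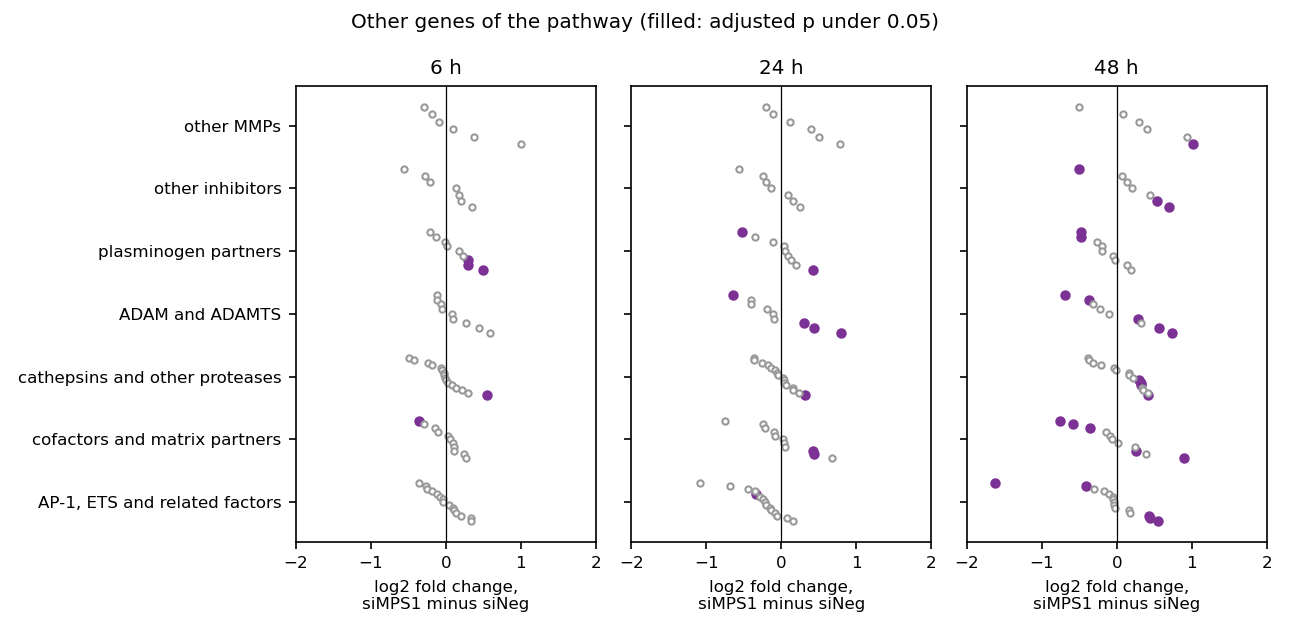
Log2 fold change of siMPS1 minus siNeg for each tested gene of the 7 lists at 6, 24 and 48 h, with filled points for an adjusted p under 0.05. Of the other MMPs 1 is filled, MMP10 at 48 h (1.02), and most filled points lie at 48 h.

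The genes whose pattern over the 9 group means was most like that of each member are given by Pearson's r, as a description over 9 points that share time and treatment. For MMP1 they were HSP90B1 (0.992), WIPI1 (0.991) and PDIA4 (0.988), for PLAU they were MCM2 (0.958), MCM6 (0.938) and MCM7 (0.937), and for PLAUR they were PER2 (0.996), LAPTM5 (0.976) and COL4A1 (0.973). For MMP14 they were TIMM22 (0.976), TIMP1 (0.972) and JUNB (0.967), and for TIMP1 they were TRMT1 (0.989), TIMM22 (0.985) and LINC01963 (0.979). MMP3 was nearest to HINFP (0.974), MMP2 to RNPS1 (0.980), TIMP2 to POLR1E (0.953) and TIMP3 to UPF1 (0.990). Among the 9 genes themselves, TIMP1 and MMP14 ran most alike (0.97), and MMP1 ran opposite to MMP2 (-0.85), PLAU (-0.84) and TIMP2 (-0.84).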

How the data were processed

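The authors deposited 1 value per probe set and array for 18 arrays of U251 cells in 9 groups of 2. The deposited values were treated as log2 signals: the submitters' processing notes name MAS5 without a version, and 2 to the power of the deposited values gave a trimmed mean of 100.122 to 100.134 on every array. The number of arrays limits the precision. The table held 22277 probe sets, 62 of them controls of the array, and 19064 named exactly 1 gene in the annotation of the array.

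Signals were returned to the linear scale, 3 was added and log2 was taken, with no further normalization. Probe sets among the dimmest 40% by mean were dropped, and each gene was represented by its brightest probe set, leaving 7828 genes. Group means of all 18 arrays were fitted with limma 3.58.1 in R 4.3.3 (intensity trend, 9 residual degrees of freedom), two-sided, with Benjamini-Hochberg adjustment within a contrast. Tested on simulated data for siMPS1 minus siNeg at 48 h over 7828 genes, the fit called 56 of 100 genes changed by 0.5 and 85 of 100 changed by 1 (log2), with 6 false calls. The simulated noise was normal with the fitted spread, and only these genes were changed. In the real contrast 29.2% of all genes were called, so these figures may not carry over to it. Other probe sets were fitted over all 19064 without a filter. The 9 genes and TTK (the check of the knockdown) were always named, and of each list the 3 genes with the smallest p among those called. ADAM9, and ADAM10 at 48 h, were named in addition. Members and lists were chosen with earlier results of these data known. Replicate numbers were not used to pair the arrays in the main fit. Promoter sequences are those of RefSeq (GRCh38.p14). The alternatives were pseudocounts of 1 and 11, quantile normalization, median centring, no filter, a filter of 60%, averaging probe sets, no intensity trend, a replicate block, only the compared groups, and leaving out each array.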

Additional observations from a re-analysis of the deposited data

Results flagged for a closer look

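The difference between siMPS1 and siNeg differed between successive times in 5 cases, by a test of the difference itself in limma. From 6 to 24 h that of PLAUR grew by 0.36 on the log2 scale (adjusted p = 0.0379). From 24 to 48 h that of MMP1 grew by 1.42 (adjusted p = 0.000152) and that of MMP3 by 1.63 (adjusted p = 0.000649). Over the same interval that of PLAU changed by -0.65 (adjusted p = 3.39e-05) and that of PLAUR by -0.49 (adjusted p = 0.00148). For each of the 4 changes between 24 and 48 h the call was kept in every fit that left out 1 array and under every other setting tried on the main probe set. The second probe set of PLAU gave -0.96 (adjusted p = 3.84e-06), while the third of PLAUR gave 0.28 (adjusted p = 0.293).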

How the results depend on the processing

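For MMP1, MMP3 and PLAU at 48 h and PLAU and PLAUR at 24 h, the calls of siMPS1 against siNeg kept their direction and their side of the threshold under all settings tried on the main probe set and in all 18 fits that left out 1 array. Without the intensity trend the counts of members called were 0 in place of 1 for siMPS1 minus siNeg at 6 h, 1 in place of 2 for siMPS1 minus Control at 6 h, 1 in place of 3 for the average, 3 in place of 5 for siNeg minus Control at 48 h and 0 in place of 1 for the change from 6 to 24 h. Without the filter the last 4 of these counts were the same, 1, 1, 3 and 0. With only the compared groups they were 3 for siNeg minus Control at 48 h, 1 in place of 0 for siNeg minus Control at 6 h, and 0 for the change from 6 to 24 h, which was also 0 with averaged probe sets. With a pseudocount of 1, and with 60% of probe sets left out, siMPS1 minus Control at 6 h had 1. The cause was not tested.

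Leaving out 1 array gave 0 to 2 members called for siMPS1 minus siNeg at 6 h, 1 to 3 for siMPS1 minus Control at 6 h, 2 to 3 for siMPS1 minus Control at 48 h, 1 to 3 for the average, 3 to 5 for siNeg minus Control at 48 h, and 0 to 2 for the change from 6 to 24 h. Between times it gave 4 to 8 for Control from 6 to 24 h, 3 to 7 for Control from 24 to 48 h and 2 to 5 for siMPS1 from 24 to 48 h, and 6 to 9 for siNeg from 6 to 24 h. A lone array left in a group is assumed to vary like the other groups. Of 2916 member results with 1 array left out, 115 lost and 11 gained a call and 0 turned. Signs turned for the third probe set of PLAUR, with -0.01 for siMPS1 minus siNeg at 24 h, 0.04 and 0.13 for siNeg and Control from 6 to 24 h, and -0.14 and 0.28 for the changes from 6 to 24 h and from 24 to 48 h. They turned for a dim MMP14 probe set in siMPS1 from 6 to 24 h (0.39), and for MMP1 (-0.26) and MMP3 (-0.27) in the average without 48 h.

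Arrays of the same replicate number had deviations correlated between -0.09 and 0.1 over 9 pairs. The labels give only the number, and with 2 arrays per group these values cannot show whether such arrays shared a culture or a day. With the replicate block 2 calls of members were lost, each lowering its count by 1, from 9 to 8 and from 5 to 4, and no other count of members called moved: MMP14 in siNeg from 6 to 24 h (-0.48, adjusted p = 0.0547) and TIMP1 in siNeg minus Control at 48 h (0.19, adjusted p = 0.0528).

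The counts over all genes, from which the shares beside the members come, also moved with the settings. For siMPS1 minus siNeg, 603 genes were called at 6 h, against 388 without the filter, 169 without the trend and 80 without siMPS1 6 h replicate 2. At 24 h 857 were called, against 502 with only the compared groups and 360 without siNeg 24 h replicate 1. For siMPS1 minus Control, 1297 were called at 6 h, against 2020 with median centring and 478 without siMPS1 6 h replicate 2. At 24 h 993 were called, against 598 with only the compared groups and 448 without Control 24 h replicate 2. For siNeg minus Control, 299 were called at 6 h, against 145 without the trend, 195 without the filter, 1028 with median centring and 61 without siNeg 6 h replicate 2, and 73 at 24 h, with 3 to 138 under other settings. The change from 6 to 24 h had 288, against 136 without the trend and 126 without siNeg 24 h replicate 1. At 48 h the counts were 1012 for siNeg minus Control, against 440 without siNeg 48 h replicate 1, and 2153 for siMPS1 minus Control, against 1415 without siMPS1 48 h replicate 2. From 24 to 48 h they were 1910, 2287 and 1533 in siMPS1, siNeg and Control cells, against 1168, 1461 and 805 at the lowest with 1 array left out.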
